A study of Homo sapiens with 12 samples.

Results

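CTCF is a zinc-finger protein that binds an asymmetric DNA motif, and it is best known for marking the anchors of chromatin loops and the borders of topological domains. Cohesin, a ring-shaped complex that contains SMC1, is thought to extrude chromatin into loops and to halt at CTCF, so that most studied CTCF sites also carry cohesin. The regions described here are the opposite case. CTCF occupied them in each genotype examined, and the deposited lists hold no cohesin peak there in any genotype.

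The regions came from chromatin immunoprecipitation sequencing (ChIP-seq) of CTCF, SMC1 and control IgG in HAP1 (labelled Hap1), a near-haploid human leukaemia cell line. The 4 genotypes were wild-type (labelled WT), ΔWAPL (WaplKO_3.3), which lacks the factor that releases cohesin from DNA, ΔSCC4 (SCC4KO), which lacks a subunit of the cohesin loader SCC2/SCC4, and ΔWAPL/ΔSCC4 (genotype WaplKO_3.3/SCC4KO, titled DKO_3.3), the double deletion, in which SCC4 was removed from ΔWAPL cells. No treatment was named in the labels, each deletion was carried by a CRISPR-edited line with a resistance cassette, and per the study's methods ΔSCC4 cells also had little SCC2 and the parental line carries mutant p53. Each antibody and genotype had 1 library, so that genotypes were set side by side without a test, and a difference between them cannot be told apart from a difference between libraries. A peak list cannot show whether the deleted genes were lost.

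The CTCF peak lists of the 4 genotypes were merged wherever intervals overlapped by at least 1 bp, which gave 53945 regions. Of these, 34622 held a CTCF peak in all 4 genotypes, and in 27670 of those every wild-type summit lay more than 1 kb from any annotated transcript start. From these 27670 constant distal regions, 6097 were chosen by the absence of any overlapping SMC1 peak in the 4 genotypes and are called cohesin-free here, which is 22.03% (95% Wilson interval 21.6 to 22.5%). Another 8194 held an SMC1 peak in all 4 genotypes and served as the main comparison, and 3856, 4595 and 4928 held one in 1, 2 and 3 genotypes. The CTCF lists held 37625 to 47608 peaks at an average of 6.53 to 8.41 reads per kb of genome, the SMC1 lists 12779 to 33952 peaks at 6.79 to 8.41 reads per kb, and the IgG lists 390 to 570 peaks. Absence of SMC1 therefore means that no peak passed the caller's limit in the deposited lists, at these depths. Peaks called from the same reads with other settings could differ. The study reported more SMC1 peaks in ΔWAPL and in the double deletion than these lists hold, and fewer in ΔSCC4. Some regions called cohesin-free here could therefore hold an SMC1 peak in the study's own count.

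The rule's limits were crossed narrowly by few regions. The nearest transcript start to any of the 6097 regions was 1002 bp away, and 80 of them had a start within 0.1 kb outside the limit, against 67 regions left out by as small a margin. An SMC1 peak of some genotype began within 100 bp of 12 regions, within 500 bp of 86 and within 1000 bp of 189. The 12 nearest had a median wild-type CTCF fold enrichment of 8.43, and the 5 regions excluded for an SMC1 overlap of at most 50 bp had 11.1. The median distance from a region to the nearest SMC1 peak was 22581 bp, with quartiles of 8300 and 52862 bp.

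The sequences under the strongest of these regions are given with their best motif match, which need not be the bases that CTCF bound. The 19-bp motif learned from the 1000 strongest wild-type CTCF peaks of odd-numbered chromosomes read TGGCCACCAGGGGGCGCTG by its most frequent base at each position. The same procedure run on the cohesin-free regions alone read TGGCCACTAGGGGGCACTA. In the lines that follow, each sequence is from GRCh37, is written 5′ to 3′ in the direction of the motif, and has the best match in capitals with 20 bases on each side. These first 5 regions had the highest wild-type CTCF −log10 q (the caller's adjusted significance) among regions with a match. Their match scores, in the order printed, were 21.8, 17.9, 5.60, 14.1 and 6.09, where a match needed 4.88.

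Intergenic, chr19:857136-857194, plus strand: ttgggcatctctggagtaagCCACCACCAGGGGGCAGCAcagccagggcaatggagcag
ASIC2 intron, chr17:32078304-32078362, minus strand: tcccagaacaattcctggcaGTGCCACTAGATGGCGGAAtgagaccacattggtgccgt
Intergenic, chr19:16173684-16173742, minus strand: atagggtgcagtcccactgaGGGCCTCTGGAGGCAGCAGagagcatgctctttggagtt
RBFOX1 intron, chr16:6693248-6693306, minus strand: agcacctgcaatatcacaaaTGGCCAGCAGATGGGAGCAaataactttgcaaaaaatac
GPBP1 intron, chr5:56516931-56516989, minus strand: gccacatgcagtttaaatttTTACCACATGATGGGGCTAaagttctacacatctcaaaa

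The 3 strongest regions without a match to the motif are given as the wild-type summit with 50 bases on each side, on the plus strand. Capitals mark CTAGTG, the reverse complement of the word CACTAG, where it occurs.

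TARID intron, chr6:134138728-134138828, plus strand: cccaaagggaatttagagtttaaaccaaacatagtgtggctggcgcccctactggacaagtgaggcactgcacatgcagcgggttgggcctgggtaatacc
DOP1B coding exon, chr21:37632957-37633057, plus strand: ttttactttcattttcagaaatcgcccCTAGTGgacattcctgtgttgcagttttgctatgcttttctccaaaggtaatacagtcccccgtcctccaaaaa
Intron of a gene without symbol, chr11:35857126-35857226, plus strand: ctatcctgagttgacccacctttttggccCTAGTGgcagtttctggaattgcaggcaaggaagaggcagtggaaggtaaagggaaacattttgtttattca

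The region farthest from any SMC1 peak among those eligible to be named is shown next, followed by the 3 strongest regions with SMC1 in all 4 genotypes, in the same format as the first 5.

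Farthest from SMC1, chr13:64030245-64030303, minus strand: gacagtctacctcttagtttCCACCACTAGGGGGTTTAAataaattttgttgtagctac
SMC1 in all genotypes, intergenic, chr15:67196182-67196240, minus strand: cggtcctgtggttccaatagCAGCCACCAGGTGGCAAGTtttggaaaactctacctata
SMC1 in all genotypes, intergenic, chr1:9687155-9687213, plus strand: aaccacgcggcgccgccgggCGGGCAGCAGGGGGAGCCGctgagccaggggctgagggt
SMC1 in all genotypes, RPTOR intron, chr17:78549301-78549359, minus strand: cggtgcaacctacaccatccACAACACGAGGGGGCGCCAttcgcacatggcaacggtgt

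CTCF at the cohesin-free regions, where the rule required a peak in each genotype, was weak. Fold enrichment is the read pileup at the summit over the local background, and it had a median of 8.90 in wild-type cells (95% interval of the median 8.78 to 9.04). The median was 8.80 in ΔWAPL cells (8.65 to 8.88), 7.69 in ΔSCC4 cells (7.60 to 7.79) and 8.73 in the double deletion (8.63 to 8.81). At regions with SMC1 in all 4 genotypes the medians were 18.9, 17.1, 17.1 and 17.3. The wild-type medians were 11.3, 13.4 and 16.2 for regions with SMC1 in 1, 2 and 3 genotypes. These values are a description without a test, since the regions had been selected on peak calls in the same libraries.

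**Figure D1:**
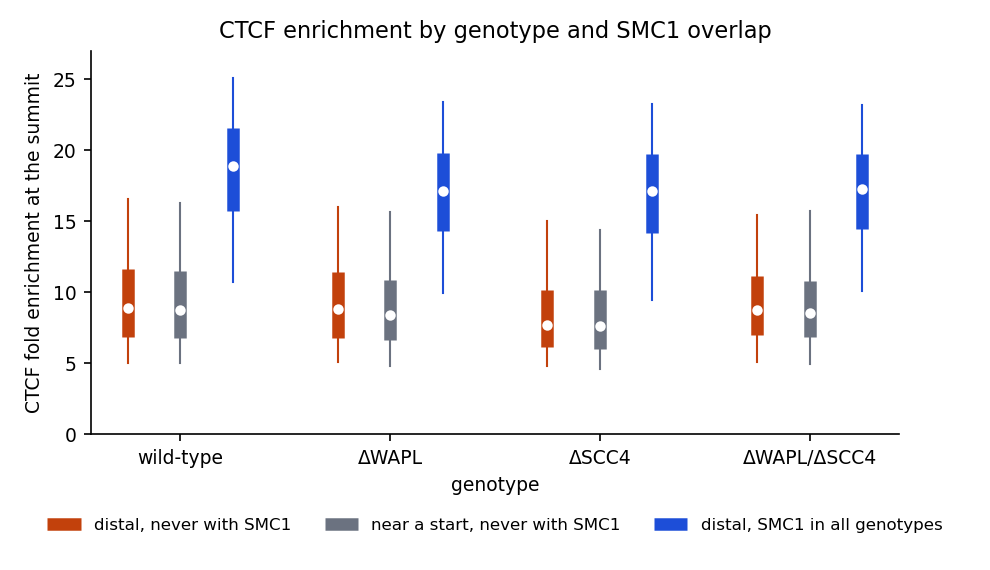
CTCF fold enrichment at the summit by genotype for 6097 distal regions never with SMC1, 1101 regions within 1 kb of a start never with SMC1, and 8194 distal regions with SMC1 in all genotypes. Dots are medians, thick bars span the quartiles and thin lines the 5th to 95th percentiles; both SMC1-free groups sit near 8 to 9 and the SMC1 group near 17 to 19.

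The low enrichment was shared with promoters. The 1101 constant regions within 1 kb of a start that never overlapped SMC1 had a median wild-type fold enrichment of 8.72 (8.46 to 8.94), close to the distal value. The distal regions were narrow, with a median wild-type peak width of 282 bp against 393 bp for regions with SMC1 in all genotypes, and their median pileup was 22 reads against 72. The 4 summits of a region spread over a median of 45 bp against 26 bp, and the highest of the 4 fold enrichments was a median of 1.45 times the lowest against 1.23 times.

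Strong sites without cohesin were few. Of the 6097 regions, 138 (2.26%) had a wild-type fold enrichment at or above the median of regions with SMC1 in all genotypes, and 51 passed that median of the same genotype in all 4. A motif match was found in 44 of these 51 (86.3%), beside 94.3% of regions with SMC1 in all genotypes. Both shares include the chromosomes that the motif was learned from. In a gene body lay 41 of the 51 (80.4%), beside 60.7% of all constant distal regions and 54.8% of those with SMC1 in all genotypes. At the other end, 293 regions had a wild-type fold enrichment below 5. A −log10 q of at least 10 in all 4 genotypes was reached by 2986 regions, which is 49.0% of them, beside 80.9% of all constant distal regions.

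By wild-type −log10 q the strongest of all was the intergenic region chr19:856979-857287. Fold enrichment was higher at other cohesin-free regions, with a wild-type maximum of 28.7. This chr19 region lay 2282 bp from a transcript start and 3253 bp from the nearest SMC1 peak. CTCF enrichment there was 23.4-fold in wild-type, 23.4-fold in ΔWAPL, 23.5-fold in ΔSCC4 and 22.7-fold in double-deletion cells, from 109, 113, 103 and 122 reads at the summit. The 4 libraries thus gave nearly the same fold enrichment at a site that lay close to cohesin without overlapping it. This depended on the scale. Divided by the genome-wide average pileup of each library, the same reads gave 100.5, 82.5, 84.1 and 100.0. The region chr17:32078184-32078513 in an intron of ASIC2, which encodes a proton-gated sodium channel, had fold enrichments of 27.1, 21.7, 23.1 and 21.9 in the same order. The region chr16:6693000-6693570 in an intron of RBFOX1, a regulator of splicing in neurons and muscle, had 24.4, 21.2, 22.5 and 23.1, and its nearest SMC1 peak was 382013 bp away. Both were highest in wild-type, the genotype whose −log10 q had ranked them. The region chr5:56516730-56517187 in GPBP1, a transcription factor that binds GC-rich promoters, had 25.2, 21.2, 21.3 and 18.8. The intergenic region chr19:16173466-16173972 had 25.9, 19.9, 21.1 and 20.1.

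The 3 strongest regions without a motif match ranked below those 5 by wild-type −log10 q, at 95.2 to 109 against 110 to 113. The region chr6:134138552-134138989, in an intron of TARID, a long non-coding RNA gene, had CTCF fold enrichments of 23.3, 21.0, 21.8 and 22.9, listed again with wild-type first and the double deletion last. The region chr21:37632711-37633276 over a coding exon of DOP1B, a gene of membrane trafficking, had 23.8, 19.1, 18.7 and 17.3. The region chr11:35856851-35857395 had 21.7, 18.1, 21.0 and 19.1. The peaks of these 3, required in each genotype by the rule, rested on 63 to 107 reads at the summit. A typical region, chr14:59106616-59106989 in an intron of DACT1, a modulator of Wnt signalling, had 8.90, 9.62, 12.9 and 9.23. Its pileup rested on 32, 37, 39 and 40 reads.

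The CTCF motif was found less often in the cohesin-free regions. A window of 50 bp on each side of the wild-type summit was counted as a match by its best score. The limit was the score that only 5% of windows 1000 bp away reached. Shares were counted on even-numbered chromosomes, which the motif was not learned from. A match was present in 1854 of 2813 cohesin-free windows, or 65.9% (64.1 to 67.6%), and in 3488 of 3717 windows with SMC1 in all genotypes, or 93.8%. The difference was −27.9 percentage points (Newcombe 95% interval −29.8 to −26.0). Regions with SMC1 in 1, 2 and 3 genotypes lay between at 82.8, 89.2 and 92.3%. Promoter regions without SMC1 had a match in 64.6% of 512 windows, and their difference from the distal regions was 1.26 points (−3.13 to 5.84), which includes 0.

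The difference in motif share depended on how strong the sites compared were. All constant distal regions were divided into 5 groups of equal size by wild-type CTCF fold enrichment, called groups of equal enrichment below. Enrichment still varied within each, for example from 19.5 to 31.4 in the highest, so that it was matched only roughly. Within the upper 4 the cohesin-free regions had a match less often by 15.1 to 18.3 points, each interval below 0. In the lowest group, up to a fold enrichment of 9.05, the order was opposite, with 59.4% of cohesin-free regions against 25.9% of 135 regions with SMC1 in all genotypes. On all chromosomes, 150 of the 235 regions with SMC1 in that lowest group overlapped a peak of an IgG library. Without regions at IgG peaks the shares in the group were 59.6% of 1439 and 82.1% of 39. Over the 5 groups the weighted difference was −7.75 points (−10.6 to −4.92), and it was −19.8 (−22.6 to −17.1) once regions at IgG peaks had been removed. Weighted differences of other measures below were not recomputed without those regions. With the motif learned from the cohesin-free regions the weighted difference was 0.22 points (−2.44 to 2.88), and with a stricter score, passed by 1% of flanking windows, it was −16.6 (−19.9 to −13.4), so that it depended on the motif and the score.

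**Figure D2:**
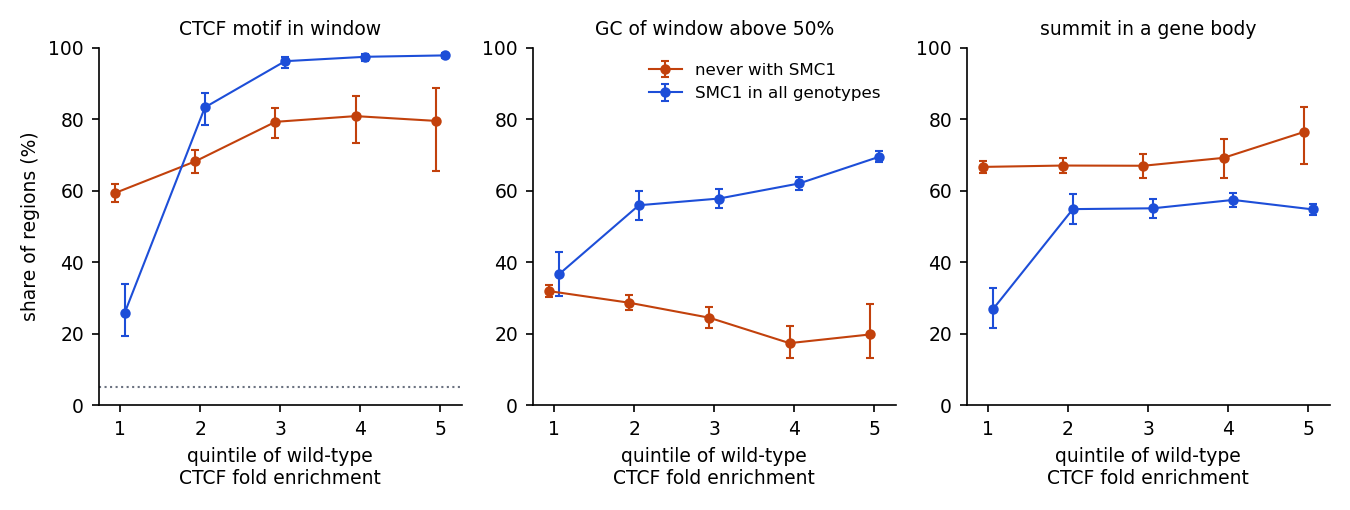
Shares of regions with a motif match (left; even-numbered chromosomes), with a window above 50% GC (middle) and with the summit in a gene body (right), in 5 groups of rising wild-type CTCF fold enrichment. Points are shares with 95% Wilson intervals and the dotted line is the 5% of flanking windows that match; from group 2 to group 5 the cohesin-free regions lie below the others in motif and GC and above them in gene bodies.

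The matches themselves differed in sequence. Positions are counted from 1 at the first base of the match, and each of the 4 bases at each of the 19 positions was compared, with intervals adjusted over the 76 differences. The adjusted interval left out 0 for 40 of them. The largest was at position 8, where 52.7% of the 1854 cohesin-free matches had T and 31.4% had C, against 30.3% T and 49.3% C in the 3488 matches with SMC1 in all genotypes. The T difference was 22.4 points (adjusted interval 17.6 to 27.1), and 32.5 points (28.6 to 36.4, unadjusted) within groups of equal enrichment. At position 18 the cohesin-free matches had T in 53.3% against 38.2% and C in 22.8% against 38.6%. At position 6 they had T in 21.1% against 5.88%. G at position 14 was in 76.8% of cohesin-free matches against 91.7%, and C at position 15 in 65.5% against 79.4%. Information, the departure from equal use of the 4 bases, was lower in the cohesin-free matches at positions 14 to 17, for example 0.864 bits against 1.49 at position 14. At the last 2 positions, 18 and 19, it was higher, at 0.316 against 0.225 bits and 0.149 against 0.122 bits. At positions 5, 10 and 13 it was 1.75, 1.90 and 1.79 bits against 1.89, 1.95 and 1.89.

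Beyond the match a second, weaker preference was visible in one group. At positions 22 and 25, downstream of the match, information was 0.156 and 0.185 bits in regions with SMC1 in all genotypes and 0.0330 and 0.0313 bits in the cohesin-free regions. Upstream, at position −8, where 0 is the base before the match, it was 0.190 and 0.172 bits, so that both groups had a preference there. These flanking values carry no test.

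**Figure D3:**
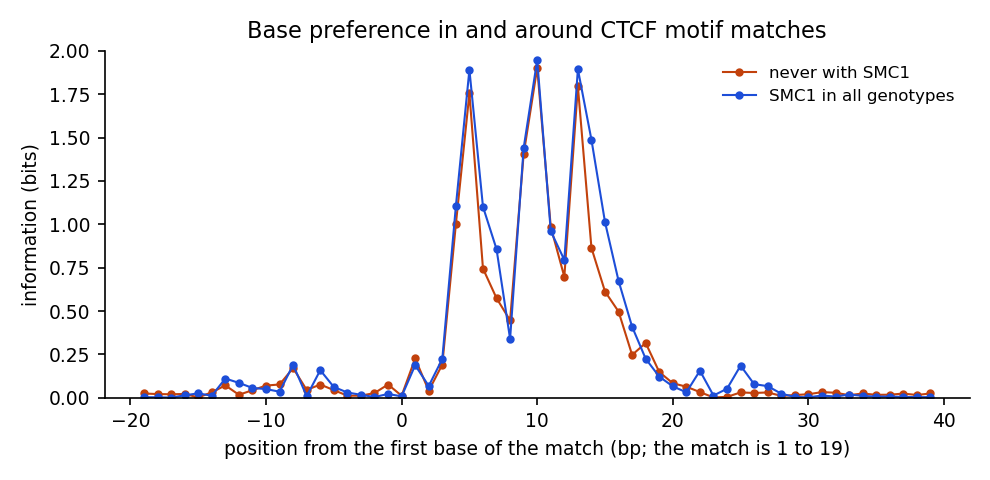
Information in bits at each position in and around motif matches on even-numbered chromosomes, for 1854 cohesin-free matches and 3488 matches with SMC1 in all genotypes, without error bars. The largest gap within the match is at position 14 (0.864 against 1.49 bits), and downstream the small peaks at positions 22 and 25 are seen in the second group.

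The T at position 8 is part of the word CACTAG, one of the 3 six-letter words most in excess over flanking sequence in the cohesin-free regions of odd-numbered chromosomes; the others were AGGGGG and CCACTA, and the words overlap the motif and CCACTA overlaps CACTAG. On even-numbered chromosomes, searching both strands, CACTAG was in 21.0% of 2813 cohesin-free windows, in 17.9% of 3717 windows with SMC1 in all genotypes, in 17.2% of the windows of all 19605 wild-type CTCF peaks and in 2.38% of flanking windows. The difference between the first pair was 3.12 points (1.18 to 5.07), and 9.24 points (6.40 to 12.1) within groups of equal enrichment. How far regions at IgG peaks, common among SMC1 regions of the lowest group, widened the second value was not tested. AGGGGG was in 19.9% against 24.6%, and within groups of equal enrichment the difference was 0.59 points (−2.20 to 3.39), an interval that includes 0. CCACTA was in 17.9% against 14.5%. Of the 959 cohesin-free windows that did not match the motif, 17.0% still held CACTAG, as did 2 of the 3 strong regions printed above, so that a window without a match is not a window without any CTCF-like letters.

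Regions with and without a match were compared next. Over all chromosomes, 4045 cohesin-free regions had a match and 2052 did not, with median wild-type CTCF fold enrichments of 9.39 (9.25 to 9.54) and 8.02 (7.83 to 8.16). Median GC content was 44.6% in both. The summit lay in a gene body in 67.8% (66.3 to 69.2%) and 65.8% (63.8 to 67.9%), and in a coding exon in 1.41 and 1.12%. Within matched windows, the match centre was within 20 bp of the summit in 65.5% of cohesin-free regions against 76.7% of those with SMC1, a difference of −11.2 points (−13.8 to −8.62). The plus strand of the chromosome carried 49.9 and 49.5% of matches.

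The cohesin-free regions were poor in GC and in CpG, the dinucleotide whose methylation is known to hinder CTCF binding at some sites. The median GC content of the window was 44.6% against 53.5% for regions with SMC1 in all genotypes, and that of the flanking sequence, within 500 bp, was 40.4% against 45.1%. Regions with SMC1 in 1, 2 and 3 genotypes lay between, with window medians of 46.5, 47.5 and 49.5%. More than 50% GC was found in 29.1% of cohesin-free windows and in 63.5% of those with SMC1 in all genotypes. This gap was wider at higher enrichment, from −4.65 points (−11.2 to 1.48) in the lowest group to −49.7 points (−56.3 to −41.0) in the highest. No CpG was present in 40.7% of cohesin-free windows (39.5 to 41.98%) against 16.1%, a difference of 24.6 points (23.2 to 26.1) and of 20.4 points (18.1 to 22.6) within groups of equal enrichment. With SMC1 in 1, 2 and 3 genotypes, 34.6, 30.5 and 24.6% of windows had no CpG. The match itself held a CpG in 23.6% of cohesin-free regions against 46.4%, a difference of −22.8 points (−25.3 to −20.2). Among promoter regions without SMC1, 19.1% of windows had no CpG. Methylation was not measured in these files. GC content also affects how fragments amplify and are sequenced, and its part in the enrichment values was not tested.

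Cohesin-free CTCF sites lay inside genes more often than sites with cohesin. The wild-type summit was in a gene body at 4092 of 6097 regions, or 67.1% (65.9 to 68.3%), against 54.8% of regions with SMC1 in all genotypes and 60.7% of all constant distal regions. With SMC1 in 1, 2 and 3 genotypes the share was 64.1, 60.7 and 60.1%. The difference of cohesin-free regions from those with SMC1 in all genotypes was 12.3 points (10.7 to 13.9). Within groups of equal enrichment this difference was 16.7 points (14.3 to 19.1). It was positive in each of the 5 groups, at 39.9, 12.2, 11.9, 11.8 and 21.6 points. In the first, lowest group the shares without regions at IgG peaks were 66.8% of 3121 against 61.2% of 85, so that most of the 39.9 points went with those regions. Without regions at IgG peaks the overall difference was 11.2 points (9.63 to 12.8). Most of these sites were intronic, since exons held 6.08% of cohesin-free summits and coding exons 1.31%. The exon share differed by −0.42 points (−1.22 to 0.39) from the SMC1 group, an interval that includes 0. Distance to the nearest transcript start was of the same order, with medians of 10194 bp (9759 to 10635) and 9927 bp (9654 to 10320).

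Within genes, the motif was oriented differently in the 2 groups. Where all genes at the summit lay on 1 strand, the motif was on the strand of the gene in 1376 of 2531 cohesin-free regions, or 54.4% (52.4 to 56.3%), and in 1842 of 3949 regions with SMC1 in all genotypes, or 46.6% (45.1 to 48.2%). The first interval is above 50% and the second below it. The difference was 7.72 points (5.23 to 10.2), and 8.87 points (5.08 to 12.7) within groups of equal enrichment. Regions with SMC1 in 1, 2 and 3 genotypes had 50.8, 51.9 and 48.5%. The difference was 6.10 points (2.64 to 9.54) on odd-numbered and 10.4 points (6.64 to 14.1) on even-numbered chromosomes, 7.52 points for genes on the plus strand, 7.93 points for genes on the minus strand, and 8.33 points (5.72 to 10.9) in introns alone. This comparison was added after other results had been seen.

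**Figure D4:**
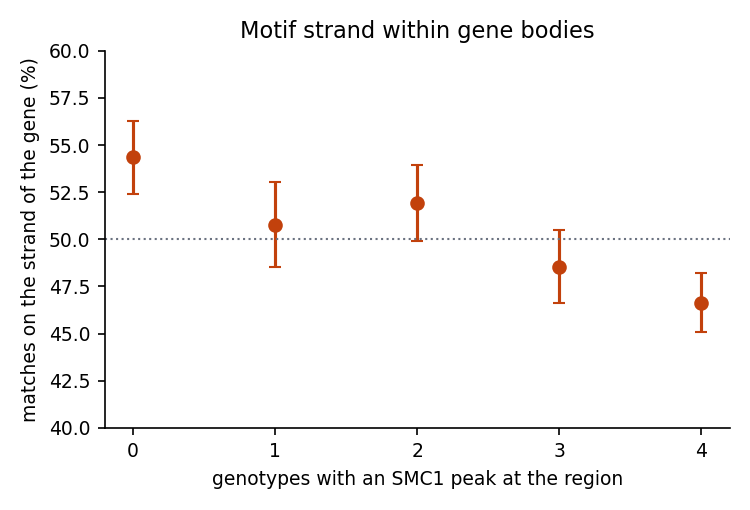
Share of CTCF motif matches that lie on the strand of the gene around them, by the number of genotypes with an SMC1 peak at the region, with 95% Wilson intervals; the axis runs from 40 to 60% and the dotted line is 50%. The share is 54.4% at 0 genotypes and 46.6% at 4.

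At least 1 cohesin-free region was found in 3676 gene bodies, and at least 5 in 19. PTPRD, which encodes a receptor tyrosine phosphatase of neurons, held 8 of its 22 constant distal regions over 2299 kb. KAZN, a gene of cell junctions, held 7 of 17. The next genes were tied at 6 each, and they were CAMTA1 with 15 constant distal regions, DCDC1 with 11, DMD, the dystrophin gene, with 12, LSAMP with 15, MCTP1 with 9 and RBFOX1 with 8. All 8 of these genes were longer than 500 kb. Over the 324 protein-coding genes longer than 500 kb, with 10 kb on each side, 485 of 2041 constant distal regions were cohesin-free, or 23.8%, beside 22.03% of all constant distal regions. In exons the most for 1 gene was 2, in FYB1, an adaptor of T-cell signalling, in HAND2-AS1, a non-coding neighbour of the cardiac factor HAND2, and in MRPL50, a mitochondrial ribosomal protein.

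The antigen receptor loci, where CTCF sites accompany the variable gene segments, held a larger share than any other list examined. Of 99 constant distal regions in or within 10 kb of these genes, 45 (45.5%, 36.0 to 55.2%) were cohesin-free, beside 22.03% of all constant distal regions, and 13 had SMC1 in all genotypes. The counts were 17 of 28 at the immunoglobulin kappa locus (IGK), 9 of 15 at the heavy-chain locus (IGH), 3 of 20 at IGL, 8 of 22 at the T-cell receptor locus TRB, 7 of 12 at TRA, 1 of 2 at TRG and 0 of 3 at TRD, whose 3 regions are also counted at TRA. IGL thus had a lower share than IGK and IGH, on few regions. The 45 regions had a median wild-type CTCF fold enrichment of 10.2, and 77.8% had a motif match. At 5 of them, all in IGK, the 32 bases at the summit occur in more than 1 place in the genome. Reads were 65 bp long, and whether they could be assigned to 1 copy there was not tested.

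The other gene lists lay nearer to the 22.03% of all constant distal regions, some on few regions. Zinc-finger genes had 56 of 220 (25.5%, 20.2 to 31.6%), olfactory receptor genes 14 of 53 (26.4%), HLA genes 3 of 14, HOX genes 2 of 14, and clustered protocadherin genes 0 of 1. Imprinted genes had 3 of 16 (18.8%, 6.59 to 43.0%), which lay at GNAS, GRB10 and PLAGL1. Genes of cohesin and its regulators had 4 of 24 (16.7%, 6.68 to 35.9%), at NIPBL, which encodes SCC2, and at STAG1 and STAG2, which encode cohesin subunits. The lists were described by these counts without a test.

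Cohesin-free regions were spread over the autosomes and X, from 18.1% of constant distal regions on chromosome 22 to 25.4% on chromosome 5 among the autosomes, with 21.8% on X, whereas Y had 1 of 38 (2.63%, 0.466 to 13.5%). The 1-Mb windows with most of them were chr19:10000001-11000000 with 13 of 30, among them regions in DNMT1, the maintenance DNA methyltransferase, in PDE4A, a cAMP phosphodiesterase, and in S1PR2, a receptor for sphingosine-1-phosphate, chr19:42000001-43000000 with 12 of 37, and chr1:47000001-48000000 with 11 of 21. The window chr2:89000001-90000000, part of IGK, tied with the third at 11 of 28. Another cohesin-free region lay within 50 kb of 24.4% of them, against 22.4% of regions with SMC1 in all genotypes that had a cohesin-free region as near, a difference of 1.96 points (0.56 to 3.37). A region with SMC1 in all genotypes lay within 50 kb of 28.0% of cohesin-free regions, while 34.1% of regions with SMC1 had another such region as near, a difference of −6.08 points (−7.60 to −4.55).

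IgG peaks and repeated summit sequences were rare at the cohesin-free regions. An IgG peak of any genotype overlapped 6 of 6097 (0.0984%, 0.0451 to 0.215%), against 226 of 8194 (2.76%) with SMC1 in all genotypes. The rule had left out regions with an SMC1 peak, and with them any site called with each antibody. The IgG overlap therefore cannot show how specific the CTCF signal was. The 32 bases at the summit occurred in more than 1 place in the genome at 161 (2.64%, 2.27 to 3.07%) against 2.09%, a difference of 0.55 points (0.05 to 1.07).

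To set the genotypes side by side, the recovered summit pileup in reads was divided by the genome-wide average pileup of its library, here called scaled pileup. At the cohesin-free regions its median was 20.3 (wild-type), 18.2 (ΔWAPL), 16.3 (ΔSCC4) and 19.7 (double deletion). Taken region by region, the median ratio of ΔWAPL to wild-type was 0.879 (0.869 to 0.890). That of ΔSCC4 was 0.817 (0.808 to 0.822), and that of the double deletion 0.931 (0.926 to 0.938). Over all constant regions the ratios were 0.815, 0.800 and 0.911, and at regions with SMC1 in all genotypes 0.768, 0.823 and 0.889. Each deletion library was therefore below wild-type at cohesin-free sites as it was at CTCF sites in general. The gap between cohesin-free regions and regions with SMC1 in all genotypes was largest in ΔWAPL, at 0.879 against 0.768. The higher ΔWAPL ratio was not particular to cohesin-free regions. With SMC1 in 1, 2 and 3 genotypes it was 0.878, 0.872 and 0.804. By the deposited fold enrichment, which divides by the local background, the median ratios at cohesin-free regions were nearer to 1, at 0.984 (0.976 to 0.991), 0.887 (0.880 to 0.894) and 0.960 (0.953 to 0.967), beside 0.948, 0.891 and 0.941 over all constant regions.

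Single regions were counted as changed when the scaled pileup differed more than 1.5-fold from wild-type. In ΔWAPL 1108 of 6088 cohesin-free regions (18.2%) were lower, where 17.0% of all constant regions were, and 369 (6.06%) were higher, where 3.49% were. In ΔSCC4 1560 of 6097 (25.6%) were lower beside 22.7% of all constant regions, and 152 (2.49%) were higher beside 0.944%. In the double deletion 690 (11.3%) were lower beside 6.98%, and 452 (7.41%) were higher beside 4.83%. The shares exceeded the background in both directions in each genotype, but narrowly for regions lower in ΔWAPL. In that comparison regions with SMC1 in all genotypes were lower more often than cohesin-free regions, at 18.97% against 18.2%. In ΔSCC4 and the double deletion they were lower less often than cohesin-free regions, and they were higher less often in each genotype. The median pileup of 22 reads at cohesin-free regions carries more counting error than the 72 reads of regions with SMC1. The part of that error in these counts was not tested. The split depended on the scale. By fold enrichment 391 (6.41%) were lower in ΔWAPL beside 2.95% of all constant regions and 360 (5.90%) higher beside 3.22%. By the same measure 803 (13.2%) were lower in ΔSCC4 beside 9.18% and 144 (2.36%) higher beside 0.806%, and in the double deletion 367 (6.02%) were lower beside 2.65% and 346 (5.67%) higher beside 3.12%. By scaled pileup, 2593 of 6088 cohesin-free regions (42.6%) were below wild-type in each deletion genotype, beside 54.6% of all constant regions, and 704 (11.6%) were above it in each, beside 5.80%.

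The extremes of this comparison rested on few reads. The lowest ratio in ΔWAPL was at the intergenic region chr6:120468702-120469004, with scaled pileups of 24.9 (wild-type), 7.30 (ΔWAPL), 14.7 (ΔSCC4) and 13.9 (double deletion), from 27, 10, 18 and 17 reads. The highest was at chr5:136141081-136141548, with scaled pileups of 6.46, 23.4, 14.7 and 14.8 from 7, 32, 18 and 18 reads. Its wild-type library was thus the odd value, since the 3 others lay above it. The lowest ratio in ΔSCC4 was in an intron of IRAG1, a gene of nitric oxide signalling in smooth muscle, at chr11:10675821-10676244, with scaled pileups of 38.7, 21.2, 8.17 and 23.8. The highest in ΔSCC4 was in AGA-DT, a non-coding gene, at chr4:178588873-178589204, with 10.1, 7.30, 33.5 and 10.7, where ΔSCC4 alone was high. In the double deletion the lowest ratio was in an intron of ALDH1A2, an enzyme of retinoic acid synthesis, at chr15:58348196-58348513, with 25.8, 9.49, 16.3 and 7.38. The highest was at chr13:54350003-54350325, with 7.38, 18.98, 16.3 and 30.3, a region without a motif match.

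**Figure D5:**
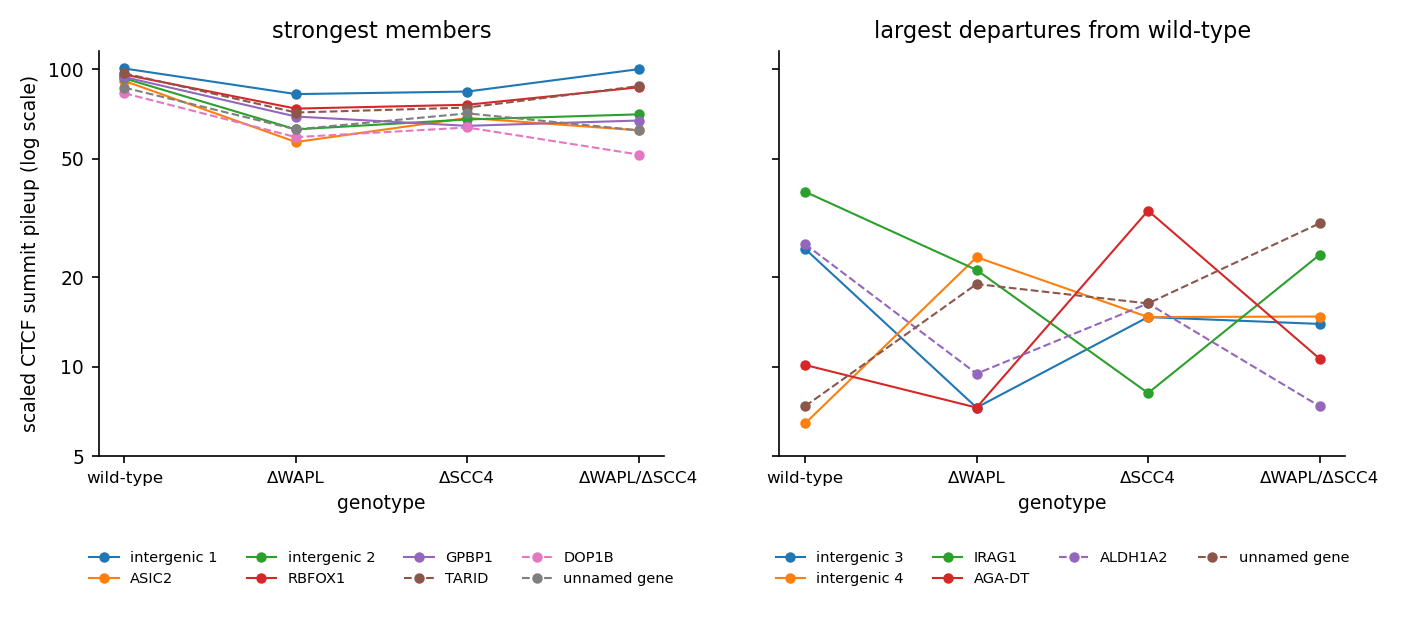
Scaled CTCF summit pileup (log axis, multiples of the library's genome-wide average) in each genotype, 1 library each and without error bars, for the 8 strongest cohesin-free regions (left) and the 6 with the largest departures from wild-type (right). Dashed lines are regions without a motif match; on the left each line is highest in wild-type, the genotype by which the regions were ranked, and on the right single libraries stand apart.

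The region farthest from cohesin among those eligible to be named, chr13:64030094-64030484, lay 943372 bp from the nearest SMC1 peak of any genotype. There CTCF was enriched 9.61-fold in wild-type and 9.72-fold in ΔWAPL cells, from 22 and 26 reads, and 10.6-fold in ΔSCC4 and 9.82-fold in double-deletion cells, from 27 and 23 reads. CTCF was called there in each genotype at nearly the same level, at a match that holds CACTAG.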

How the data were processed

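The labels gave 12 libraries, 1 for each of 3 antibodies in 4 genotypes, grouped by title. The authors mapped single-end reads of 65 bp to hg19 with Bowtie2 and called peaks per library with MACS2 2.1.1. The deposited lists give each peak's interval and summit, a fold enrichment (a ratio of summit pileup to local background, each with 1 read added) and −log10 p and q values from the authors' peak caller. The methods name IgG as the control, whereas the backgrounds solved here were whole reads in 10 kb of the library itself for 100% of peaks above the floor (tolerance 0.05). The lists hold no read totals. The whole-number pileup and background that solve both the enrichment and the −log10 p were recovered for at least 99.48% of CTCF peaks of any list, and for 8055 of the 8194 wild-type summits with SMC1 in all genotypes, the strongest being lost. The lowest background gave the average depth per library.

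Starts, genes and exons came from GENCODE 44 on GRCh37, the build of hg19. The motif was learned by re-estimation from windows 50 bp on each side of summits without an IgG peak. Shares have Wilson intervals, differences Newcombe intervals, differences within quintiles Mantel-Haenszel weights, and medians order-statistic intervals, all at 95%. They cover counting error, treat regions as independent and leave out variation between cultures and precipitations. Recovery, motif and intervals were tested on simulated data. Python 3.11.15, numpy 2.4.6, scipy 1.17.1 and pandas 2.3.3 were used. Coordinates are 1-based.

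The regions and gene lists were chosen with earlier results of these data known. Named regions followed a rule, on chromosomes 1 to 22 and X without one chromosome and away from IgG peaks: the 5 strongest by wild-type −log10 q with a match, the 3 without, the one nearest the median, the extremes of each ratio to wild-type, the farthest from SMC1 and 3 for comparison. Named genes were the 5 with most members, with ties, 3 by exons, and the 3 fullest windows of 1 Mb. Alternatives changed 1 choice at a time: −log10 q limits of 5 and 10, an SMC1 limit of 5, SMC1 within 1 kb, an overlap of 50%, starts within 5 kb, no IgG peaks, no Y, each SMC1 list left out, and a 1% motif score, another motif and a window of 25 bp.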

Additional observations from a re-analysis of the deposited data

Results flagged for a closer look

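By scaled CTCF summit pileup, the median ratio on loss of the same gene lay on opposite sides of 1 in the 2 backgrounds at the cohesin-free regions. On loss of WAPL the median ratio was 0.879 (0.869 to 0.890) from wild-type to ΔWAPL and 1.15 (1.13 to 1.16) from ΔSCC4 to ΔWAPL/ΔSCC4, with 33.8% and 69.3% of the regions above 1. On loss of SCC4 it was 0.817 (0.808 to 0.822) from wild-type to ΔSCC4 and 1.06 (1.05 to 1.07) from ΔWAPL to ΔWAPL/ΔSCC4, with 25.3% and 57.6% above 1. The difference between backgrounds was not tested, since each genotype had 1 CTCF library, and all 4 ratios rest on the same 4 libraries. On that scale the same turn was seen over all constant regions, at 0.815 and 1.14 for WAPL and at 0.800 and 1.12 for SCC4, so that it was not particular to sites without cohesin.
By fold enrichment the turn for WAPL was seen, with median ratios of 0.984 (0.976 to 0.991) and 1.09 (1.08 to 1.10) at the cohesin-free regions, but that for SCC4 was not, with 0.887 (0.880 to 0.894) and 0.982 (0.975 to 0.989), so that the second depended on the scale.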

How the results depend on the processing

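Of 143 recomputed values, 115 kept their direction and their side of the limit, or stayed within 1.5 times or within the interval of the main value. The share of constant distal regions that are cohesin-free was 19.95% at a CTCF −log10 q of at least 5 and 13.3% (2986 regions) at 10, 26.6% at an SMC1 −log10 q of at least 5, 21.4% when SMC1 within 1 kb counted as overlap, and 22.8, 30.0 and 27.01% without the SMC1 list of wild-type, ΔWAPL and ΔWAPL/ΔSCC4. The ratio of median wild-type fold enrichment, 0.472 in the report's groups, was 0.4997 and 0.604 at the 2 CTCF limits, and 0.483, 0.499, 0.494 and 0.493 leaving out the SMC1 list of wild-type, then ΔWAPL, then ΔSCC4, then the double deletion. At a CTCF −log10 q of at least 10 the median scaled pileup ratio was 0.859 in ΔWAPL and 0.889 in ΔWAPL/ΔSCC4, and without the ΔWAPL SMC1 list it was 0.797 in ΔSCC4. With fold enrichment in place of scaled pileup, added after seeing the data, the ratios were 0.984 in ΔWAPL, 0.887 in ΔSCC4 and 0.960 in the double deletion. The GC difference was −9.90 points at that CTCF limit and at the SMC1 limit, and −7.92 without the SMC1 list of ΔWAPL or of ΔSCC4. The exon difference changed sign to 0.417 points without the ΔWAPL SMC1 list (−0.341 to 1.18), and its interval left out 0 at −0.782 without ΔSCC4 and −0.864 without ΔWAPL/ΔSCC4. The motif difference within groups of equal enrichment changed sign to 0.223 points with the motif learned from the cohesin-free regions. The cause of these shifts was not tested. A planned share of repeat-masked summits was not run, since the reference used here marks no repeats, and the count of summit sequences with more than 1 copy took its place. Strata other than those of the motif, the copy count, strand and locus counts and the 2 backgrounds were chosen after seeing the data. No paired analysis was possible because each group held 1 library.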
